A study of Aspergillus niger with 6 samples.

Results

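Genes for ribosomal proteins of the mitochondrial and bacterial type were compared between 2 strains of the filamentous fungus Aspergillus niger. They were found by name: the KEGG product had to read "subunit ribosomal protein" and to carry either an MRP symbol (mitochondrial ribosomal protein) or a bacterial symbol of the rps, rpl or rpm form. This gave 31 of the 11910 genes in the deposited table, 19 of the large and 12 of the small subunit. Of these, 30 carry an MRP symbol, and the S13 gene passed by its bacterial symbol rpsM alone.

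The mutant strain is ΔrpnR, in which rpnR is deleted (a gene that the series title places under FlbA and predicts to encode a transcription factor), and the control is strain MA234.1. The labels number 3 libraries in each strain, whereas the design text speaks of duplicates. Both strains were grown in shaken liquid at 30 °C, for 16 h in Transformation Medium with 1% glucose and then, after transfer of the mycelium, for 4 h in Minimal Medium with 25 mM xylose. The deposited values are 1 FPKM per gene and strain, computed by the authors, a unit in which fragments are divided by transcript length and by depth, so no value below has an error or a replicate number of its own. The only test over replicates is the authors' q-value. Library depth is unknown. A gene is called here when that q is under 0.05. No row carries the symbol rpnR, so the deletion was not checked through its transcript. As bulk mycelium was measured, fewer cells with a transcript and less transcript per cell cannot be told apart.

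Mitochondria keep a small genome of their own and translate it on a separate ribosome of bacterial descent. In fungi that ribosome makes core subunits of the respiratory chain and of ATP synthase, while nearly all of its own proteins are encoded in the nucleus, translated in the cytosol and imported. The roles given below are those known from Escherichia coli, or from yeast where stated. All 31 genes are named after bacterial protein families that have counterparts in mitochondrial ribosomes.

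None of the 31 genes was called in either direction, against a background of 6.54% of the 9234 genes the authors tested (3.25% called lower and 3.29% higher). Other rules gave no call among the 31 either: a q under 0.01 called 2.59% of all tested genes, a q under 0.1 called 9.41% and the authors' own flag marked 5.46%. As the lowest q among the 31 was 0.287, the rules on q could call none and add no further check. The authors' flag asks for a change of at least 2-fold, which none of the 31 reached, so it adds none either. All 31 had a lower value in the deletion strain than in the control, against 48.7% of all tested genes. The median log2 ratio on the log2(FPKM + 1) scale was -0.39, and over all tested genes it was 0.02. By the median ratio of FPKM without the added 1, the 31 genes lay 24.02% below the control. Ratios ran from -0.67 to -0.06, with the middle 50% of the genes between -0.46 and -0.28. A shortfall of more than 0.25 on the log2 scale was seen for 27 of the 31 (87.1%), against 28.5% of all tested genes. In the authors' deposited table the lowest q among the 31 was 0.287 and the median q was 0.715. An interval for each unadjusted p was worked back from the q-values of the authors' deposited table. It lay above 0.05 for all 31, the lowest being 0.0535 to 0.0536, so 0 of 31 came under 0.05 unadjusted, against 18.1% of all tested genes. A missed threshold does not show that these transcripts were equal in the strains.

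**Figure D1:**
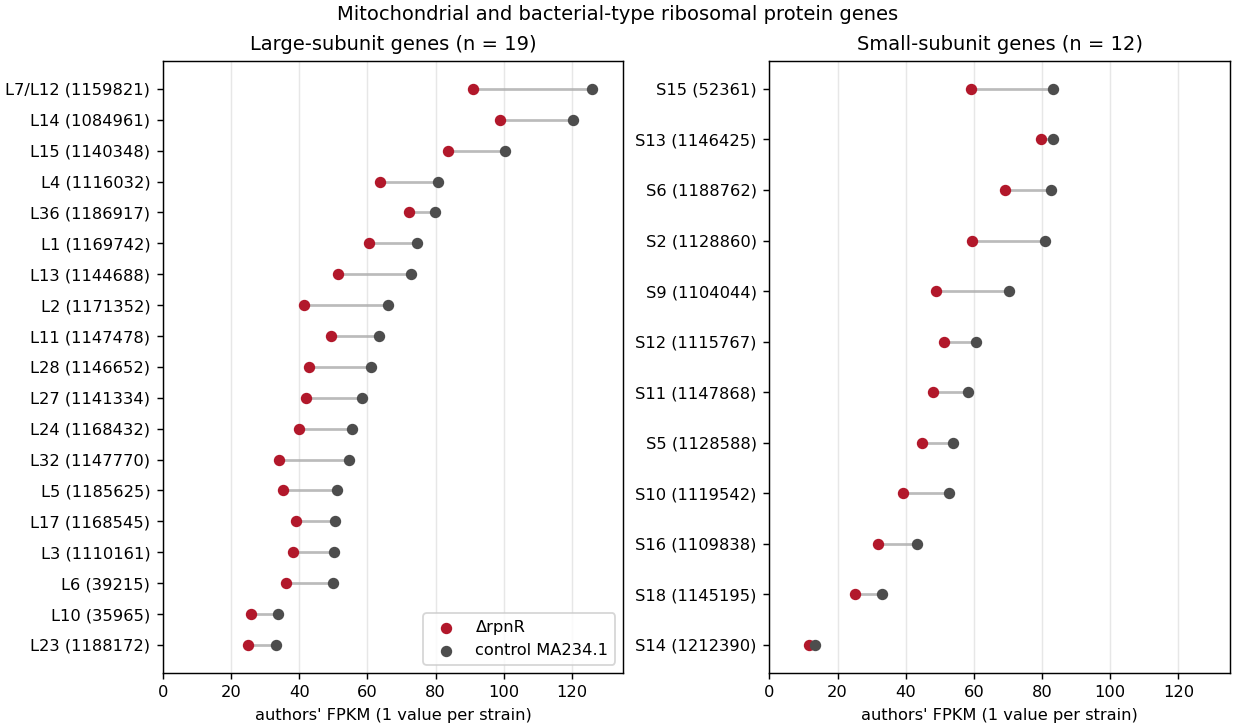
Authors' FPKM of each of the 31 genes in the deletion strain (red) and in the control (grey), large subunit on the left and small subunit on the right, ordered by the control value, with the protein number in brackets. In every row the red point lies left of the grey one, from the closest pair of points at S14 (11.7 FPKM in the deletion strain and 13.3 FPKM in the control) to the widest at L7/L12 (91.1 FPKM in the deletion strain and 126 FPKM in the control).

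In the deletion strain they ran from 11.7 to 98.9 FPKM with a median of 44.9 FPKM, and in the control from 13.3 to 126 FPKM with a median of 60.7 FPKM. Over all tested genes the median level was 17.5 FPKM in the deletion strain and 17.7 FPKM in the control. The 31 genes summed to 1538 FPKM, or 0.176% of all FPKM, in the deletion strain and to 1997 FPKM, or 0.241%, in the control. The order of the levels was much alike: 25 of 31 genes moved by at most 3 places and the largest move was 6 places. The rank correlation of the 2 columns was 0.957 over the 31 genes, which share libraries and gene models, and is given as a description.

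Among the large-subunit genes, the proteins that receive translation factors differed widely in level. L7/L12 (protein 1159821), the flexible stalk protein that recruits elongation factors and sits on each ribosome in several copies, had 91.1 FPKM in the deletion strain and 126 FPKM in the control, a log2 ratio of -0.46. L10 (35965), which anchors that stalk, had 25.9 FPKM in the deletion strain and 33.6 FPKM in the control. L11 (1147478), at the base of the stalk, had 49.4 FPKM in the deletion strain and 63.5 FPKM in the control. The stalk protein thus had the highest level of these 3 in both strains and its anchor the lowest. L1 (1169742), the mobile arm at the exit site of tRNA, and L6 (39215), next to the factor-binding site, had log2 ratios of -0.30 and -0.46. These 5 genes had a median of -0.37, with none called.

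The catalytic core held one of the largest shortfalls. L2 (1171352), which lies beside the peptidyl transferase centre where peptide bonds form, had 41.4 FPKM in the deletion strain and 66.2 FPKM in the control, 37.4% lower, at a log2 ratio of -0.66. In the authors' deposited table it had the lowest q of the 31, 0.287. L27 (1141334), whose tail reaches the same centre in bacteria, had 42.0 FPKM in the deletion strain and 58.3 FPKM in the control. L3 (1110161), which also reaches toward it, had 38.0 FPKM in the deletion strain and 50.1 FPKM in the control. All 3 lay below the control and none was called, and L2 lay furthest from it.

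Proteins of the exit tunnel, through which the new chain leaves the ribosome, lay closer together. L4 (1116032), which lines the tunnel, had 63.8 FPKM in the deletion strain and 80.8 FPKM in the control. L17 (1168545), L23 (1188172) and L24 (1168432), at the opening of the tunnel, had log2 ratios of -0.36, -0.39 and -0.46. None of the 4 was called and their median was -0.38, near that of the whole set.

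The other 7 large-subunit genes spanned the widest range, from the lowest log2 ratio of the set to one of the highest. L32 (1147770) is a small protein that in yeast mitochondria is cut by the inner-membrane m-AAA protease before it joins the ribosome. It had 34.0 FPKM in the deletion strain and 54.7 FPKM in the control, 37.9% lower, at a log2 ratio of -0.67 and a q of 0.351 in the authors' deposited table. L5 (1185625), which binds 5S rRNA in bacteria, had 35.3 FPKM in the deletion strain and 51.0 FPKM in the control, at a log2 ratio of -0.52. At the other end, L36 (1186917), the smallest protein of the bacterial large subunit, had 72.3 FPKM in the deletion strain and 79.9 FPKM in the control, 9.51% lower, at -0.14. The intersubunit protein L14 (1084961) had 98.9 FPKM in the deletion strain, the highest of the 31 there, and 120.3 FPKM in the control, where only L7/L12 was higher. L15 (1140348), a late-assembling protein in bacteria, came next to these in either strain, with 83.6 FPKM in the deletion strain and 100.4 FPKM in the control. L13 (1144688), an early-assembling protein, and L28 (1146652) had log2 ratios of -0.49 and -0.50.

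Small-subunit genes had a median log2 ratio of -0.33 and large-subunit genes one of -0.39, a difference that was not tested. The decoding proteins S12 (1115767) and S5 (1128588), which in bacteria set the accuracy of codon reading, were close to each other: S12 had 51.2 FPKM in the deletion strain and 60.7 FPKM in the control, and S5 had 44.9 FPKM in the deletion strain and 53.7 FPKM in the control. Their log2 ratios of -0.24 and -0.25 were in the upper part of the set's range, and neither was called.

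In the head of the small subunit, which holds the tRNAs, neighbours differed. S13 (1146425), which touches the tRNA at the peptidyl site and the large subunit, had 79.6 FPKM in the deletion strain and 83.1 FPKM in the control, 4.24% lower, the ratio nearest to 0 of all 31 at -0.06. S9 (1104044), whose tail touches the same tRNA, had 48.9 FPKM in the deletion strain and 70.2 FPKM in the control, 30.3% lower, at -0.51. These 2 genes thus stood near opposite ends of the set's range. S10 (1119542) and S2 (1128860), the last at the junction of head and body, had log2 ratios of -0.42 and -0.44. S14 (1212390) was the least abundant gene of the set, with 11.7 FPKM in the deletion strain and 13.3 FPKM in the control, at -0.17. Its gene model also carries an Arb2 domain, a domain of another protein family, and how its FPKM divides between the parts was not analysed here.

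The platform, central domain and body held 5 genes with a median log2 ratio of -0.38 and no call. S15 (52361), which binds the central domain of the rRNA early in assembly, had 59.1 FPKM in the deletion strain and 83.3 FPKM in the control, at -0.49. S6 (1188762) and S18 (1145195), which bind the platform as a pair, had log2 ratios of -0.25 and -0.38. The levels of this pair were unequal: S6 had 69.1 FPKM in the deletion strain and 82.7 FPKM in the control, while S18 had 25.2 FPKM in the deletion strain and 33.2 FPKM in the control. S11 (1147868), also of the platform, and S16 (1109838), of the body, had log2 ratios of -0.28 and -0.44.

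The q-values followed the ratios with 2 exceptions. Among the 16 other genes with a log2 ratio between -0.55 and -0.35, the q in the authors' deposited table ran from 0.470 to 0.767. L13 at -0.49 had a q of 0.940 and L23 at -0.39 a q of 0.974 in the same deposited table, as high as those of genes close to the control. Over all 31 genes the rank correlation between the shortfall and q was -0.824, and without these 2 genes, left out after their values were seen, it was -0.988 over 29. Both are descriptions of genes that share libraries. The spread between libraries behind these 2 q-values was not analysed here.

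**Figure D2:**
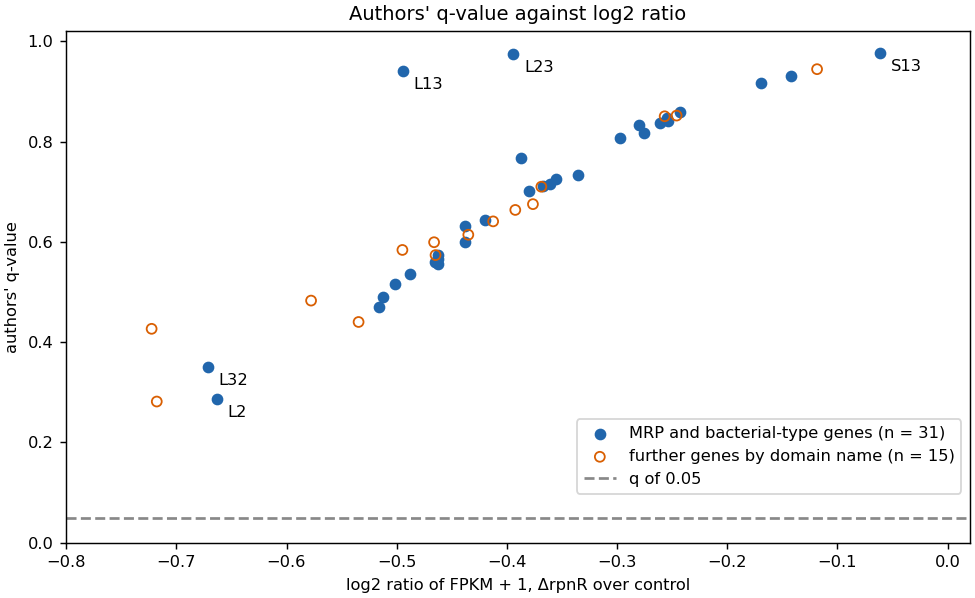
The authors' q-value (vertical axis) against the log2 ratio of the deletion strain over the control (horizontal axis) for the 31 genes (blue) and for 15 further genes chosen by domain name (open orange). No gene of either group lies under the dashed line at 0.05, and L13 (q of 0.940) and L23 (q of 0.974) stand above the band formed by the rest.

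The annotation holds other readouts that the name rule did not use. A protein domain was listed for 29 of the 31, and all but L10 and L24 therefore have a family from sequence as well as a name. The GO term for a structural part of the ribosome was given to 26, and none carried a GO term for the mitochondrion. None had a predicted secretion signal or transmembrane segment, against 8.69% and 21.5% of all genes in the table. The place of these proteins in the mitochondrion therefore rests on their names, and was not measured.

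Other genes of the table carry ribosomal protein domains without a KEGG product, and they lay in a similar range. This group of 15 was formed after earlier values were known, from single-domain proteins with an MRP-type domain name or with a ribosomal domain and the matching GO term, and 8 of the 15 have an MRP-type domain. Some of the other domain families also occur in cytosolic ribosomal proteins, as S8 does in RPS15A (1142798). For such genes the domain alone does not show the mitochondrial or bacterial type. All 15 lay below the control, none was called, and the median log2 ratio was -0.43, with a range from -0.72 to -0.12. The gene with an S19 domain (187803) had 50.9 FPKM in the deletion strain and 84.7 FPKM in the control, at -0.72, the lowest ratio of the 15. The gene with an MRP_L53 domain (1145040) had 24.2 FPKM in the deletion strain and 40.4 FPKM in the control, also at -0.72. These 2 genes, named after their values were seen, lay below the lowest ratio of the 31. The gene with an MRP-L47 domain (1184673), the most abundant of the 15 in either strain, had 73.0 FPKM in the deletion strain and 87.4 FPKM in the control. A gene with an S21 domain (1137075), next by the mean of the strains, had 57.8 FPKM in the deletion strain and 78.5 FPKM in the control. The gene with an MRP-S25 domain (1110337) was the closest to the control, with 40.5 FPKM in the deletion strain and 44.1 FPKM in the control. Another 3 gene models join a ribosomal protein domain to another protein and were left out of the 15. An omega-amidase model (52578), whose ribosomal domain is L31e, a family of the cytosolic ribosome, had 186 FPKM in the deletion strain and 366 FPKM in the control, at -0.97. The other 2 carry MRP-type domains, a splicing factor 3B subunit (1161381) with 28.9 FPKM in the deletion strain and 32.3 FPKM in the control, and a CAF1 domain protein (1138528) with 29.6 FPKM in the deletion strain and 31.8 FPKM in the control. With the 15, the set came to 46 genes, all below the control, with no call and a median of -0.40.

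Cytosolic ribosomal protein genes, which encode the ribosome that translates nuclear mRNAs, lay much further below the control. Of the 77, 60 were called lower and none higher, and their median log2 ratio was -1.65. Of these 77, 76 had a log2 ratio below that of every one of the 31 genes. The summed FPKM of the cytosolic genes was 20.6 times that of the 31 in the deletion strain and 47.3 times in the control. The difference between the 2 groups of genes was not tested, since genes are not replicates of a strain.

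Pairs of genes from the same protein families were also set side by side. Of the 31 genes, 20 share a Pfam domain with a cytosolic ribosomal protein gene, which gave 21 pairs, as L13 has 2 cytosolic relatives. In all 21 pairs the cytosolic gene had the lower log2 ratio, and 18 of the 21 cytosolic genes were called lower. That direction followed from the group ranges above, as the only cytosolic gene not below all 31 (1143149) is in no pair. The pairs are therefore a description and no further support. The difference between the log2 ratio of the mitochondrial or bacterial-type gene and that of its cytosolic relative ran from 0.80 to 1.65, with a median of 1.33. S2 and RPSA (1135824) stood furthest apart. S2 had 59.4 FPKM in the deletion strain and 80.8 FPKM in the control, while RPSA had 171 FPKM in the deletion strain and 732 FPKM in the control. L13 and its weakly expressed relative RPL13A (1135869) stood closest, where RPL13A had 15.9 FPKM in the deletion strain and 40.6 FPKM in the control. That was the only pair in which the cytosolic gene had the lower level. L2, at a log2 ratio of -0.66, and RPL8 (1145357), at -1.55, were the next closest, and RPL8 was not called. The median pair had 7.24 times as much of the cytosolic transcript in the deletion strain and 19.9 times as much in the control.

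**Figure D3:**
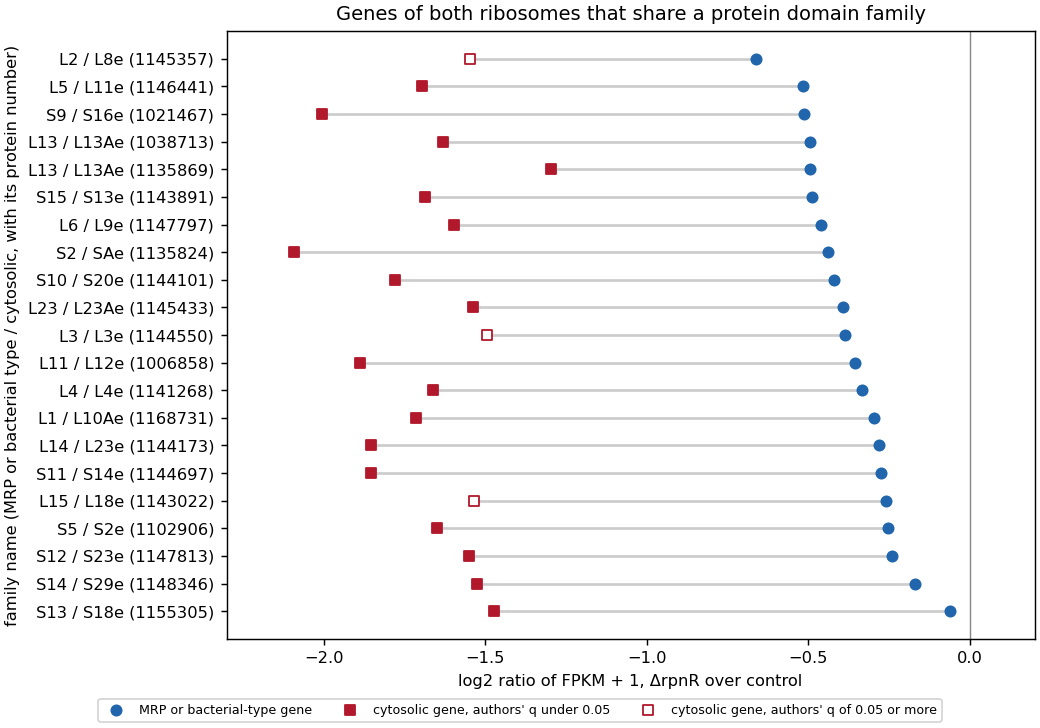
Log2 ratio of the deletion strain over the control for 21 pairs of genes that share a Pfam domain, with the mitochondrial or bacterial-type gene as a blue circle and its cytosolic relative as a red square, the square filled where the authors' q was under 0.05. Every square lies left of its circle, and the gap runs from 0.80 (L13 and RPL13A, 1135869) to 1.65 (S2 and RPSA).

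The nuclear genes for the respiratory chain and ATP synthase, whose complexes also take up the proteins made on the mitochondrial ribosome, mostly lay above the control on the deposited scale, but not with FPKM rescaled without the cytosolic ribosomal protein genes. Of 46 tested genes, 35 lay above and 11 below, none was called, and the median log2 ratio was 0.15. Of the 46, 36 had a ratio above that of all 31 ribosomal protein genes and 10 lay within their range. The 2 most abundant were the alpha and beta subunits of ATP synthase, which form its catalytic head. The alpha subunit (1028444) had 2560 FPKM in the deletion strain and 2308 FPKM in the control, and the beta subunit (1141667) had 2495 FPKM in the deletion strain and 2174 FPKM in the control. All 4 tested genes of succinate dehydrogenase, the complex with no mitochondrially encoded subunit, lay above the control, at log2 ratios of 0.61 to 0.90. Median log2 ratios were 0.16 for NADH dehydrogenase, 0.16 for ubiquinol-cytochrome c reductase, 0.05 for cytochrome c oxidase and 0.15 for ATP synthase. Differences between the complexes were not tested. With that rescaling, 27 of the 46 lay below the control. All tested genes then had a median of -0.17, and relative to that the respiratory genes lay at 0.12 and the 31 at -0.42.

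The citrate cycle, which feeds electrons to that chain, had 12 of 18 tested genes above the control, with a median of 0.19. It held 1 call, where 6.54% of all tested genes were called. With the same rescaling 9 of the 18 lay below the control. A citrate synthase (1143506) rose, with 163 FPKM in the deletion strain and 66.2 FPKM in the control and a q of 0.0202 in the authors' deposited table. The most abundant citrate synthase (1141371) had 1216 FPKM in the deletion strain and 1063 FPKM in the control and was not called. Weakly expressed entries differed in direction: 1117524 had 1.26 FPKM in the deletion strain and 2.38 FPKM in the control. For 1114423 the values were 1.22 FPKM in the deletion strain and 0.565 FPKM in the control. Among the aminoacyl-tRNA synthetases, which charge tRNAs for either ribosome and are not separated by compartment in the table, 29 of 35 tested genes lay below the control. None was called and the median was -0.25. The 2 with the highest mean of the strains differed in direction: a valyl-tRNA synthetase (1124700) had 191 FPKM in the deletion strain and 123 FPKM in the control, and a seryl-tRNA synthetase (1185711) had 124 FPKM in the deletion strain and 178 FPKM in the control.

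**Figure D4:**
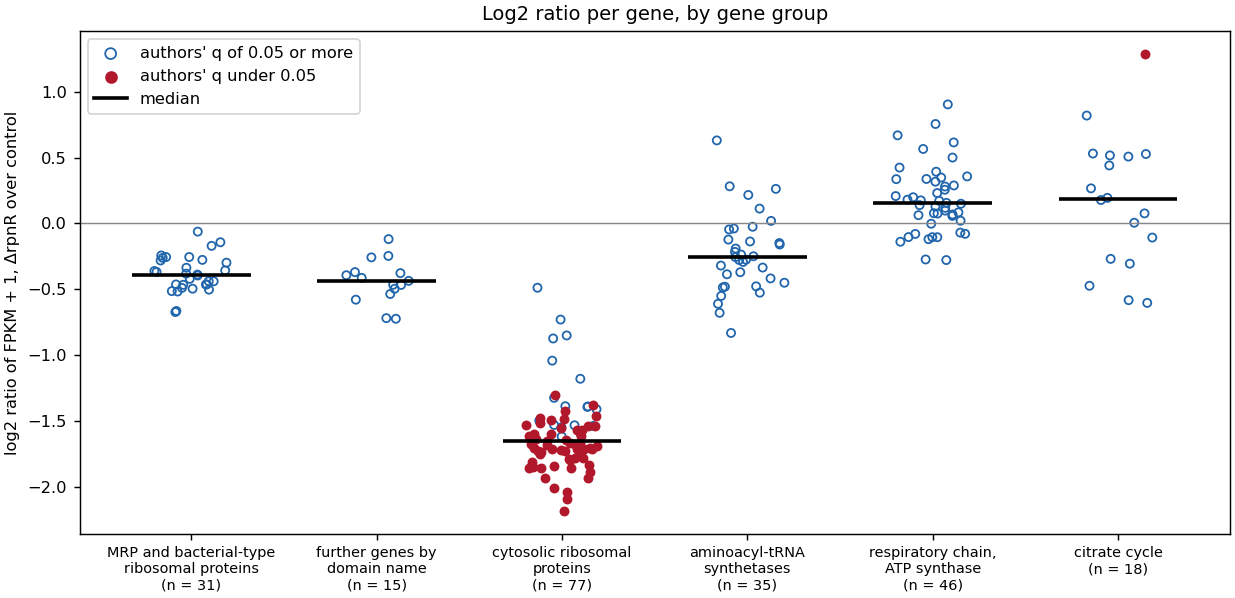
Log2 ratio of FPKM + 1, deletion strain over control, for each tested gene of 6 groups, with filled red points where the authors' q was under 0.05 and a bar at the median. The 31 genes (median -0.39) and the 15 further genes (median -0.43) have medians between those of the cytosolic ribosomal protein genes (-1.65) and of the respiratory chain and ATP synthase genes (0.15), the last of which lies at -0.04 with FPKM rescaled without the cytosolic ribosomal protein genes.

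Named by KEGG product, few other genes of mitochondrial gene expression were listed. The elongation factor Tu gene (1041533), whose product brings charged tRNA to the ribosome, had 173 FPKM in the deletion strain and 202 FPKM in the control. The methionyl-tRNA formyltransferase gene (1188395), whose product prepares the initiator tRNA, had 9.76 FPKM in the deletion strain and 13.9 FPKM in the control. TOM40 (1143388), the import pore of the outer membrane, had 88.9 FPKM in the deletion strain and 103.8 FPKM in the control. Neither these nor the 3 genes of mitochondrial proteases and chaperones were called. Of those 3, the chaperonin groEL (1157207) had 384 FPKM in the deletion strain and 448 FPKM in the control, whereas lon (1112895) had 211 FPKM in the deletion strain and 145 FPKM in the control. The gene clpX (1205318) had 27.6 FPKM in the deletion strain and 19.99 FPKM in the control. No product name matched the lists for assembly GTPases with rRNA enzymes and for mitochondrial transcription.

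Hydrophobins, surface proteins of aerial hyphae and conidia, were taken as possible markers of such cells. Cell types were not measured, nor was whether submerged mycelium expressed these genes. Of 8 hydrophobin genes 6 lay below the control. Of the 8, 2 were called lower and none higher, against 3.25% and 3.29% of all tested genes. None was at 0 in either strain, and the 8 genes summed to 43.3 FPKM in the deletion strain and 230 FPKM in the control. Their part in the values of the ribosomal protein genes was not tested.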

How the data were processed

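RNA of 6 libraries was summarised by the authors to 1 FPKM value per gene and strain; the unit is read from Cuffdiff, since the deposited header says only expression value. Tools listed without roles, per the submitters' processing notes, were Cufflinks, Cuffdiff 2.2.1, TopHat2, Trimmomatic and CASAVA 1.8.3. The sources used here do not name the genome build. The authors' deposited q-value gave the calls (q under 0.05). The 2676 genes with a q of 1 were taken as not tested, which left 9234. Log2 ratios used a pseudocount of 1 and understate the change of low genes. An interval for the unadjusted p came from q times its rank over 9234, and the method was tested on simulated data. The unadjusted p-values set the difference between the strains against the authors' estimate of spread between libraries, which may be technical.

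Members, lists and places in the ribosome were chosen with earlier results of these data known, and lists are described by counts and medians only. Every member could be named; other lists name up to 3 called genes, or the 2 with the highest mean FPKM of the strains where none was called, and further genes were named after their values were seen. No protein or DNA sequence and no coordinates were used here. Python 3.11.15 and pandas 2.3.3 were used.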

Additional observations from a re-analysis of the deposited data

How the results depend on the processing

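No paired analysis was possible because the table holds 1 value per strain, and for the same reason no replicate could be left out. No member was called with q under 0.01, q under 0.1, the authors' own flag or a mean of at least 5 FPKM, where 2.59%, 9.41% and 5.46% of all tested genes were called by the first 3 rules. With a lowest q of 0.287 among the members, the q thresholds and the level filter could call none, so they were no separate check. Nor was the authors' flag, which asks for a change of at least 2-fold that no member reached. With q under 0.01, 30 cytosolic ribosomal protein genes were called lower, no citrate cycle gene was called, and over all tested genes 127 were called lower and 112 higher. All 31 members stayed below the control with a pseudocount of 0.1, a centred ratio and both rescalings. None of these settings could move a member above the control, so they were no separate check. A pseudocount keeps the direction of a difference, and centring and both rescalings lowered the ratios. Rescaled to equal sums, the median of the 30 MRP-named members was -0.47. Rescaled without the cytosolic ribosomal protein genes, an alternative added after the data were seen, the median was -0.58 for all members, -0.59 for the large subunit, -0.52 for the small subunit and -0.58 for the MRP-named members, while that of all tested genes moved to -0.17. The cause of these shifts is the scaling itself. With members chosen by domain name, 40 genes (29 of the 31 and 11 others) held 0.222% of all FPKM in the deletion strain and 0.301% in the control, all below the control. The 11 others include the splicing factor 3B (1161381) and CAF1 domain (1138528) models, which join an MRP-type domain to another protein. Taking the first KEGG entry alone gave the same values. Depth limits are unknown, as no counts were used.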

Other observations

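Genes of protein import into mitochondria, found by domain name in a list formed after earlier values were known, mostly lay below the control. Of 20 genes, 17 lay below and 3 above, none was called, and the median log2 ratio was -0.33. By the mean of the strains, the most abundant were a Pam16 and DnaJ domain gene (1144117) of the import motor, with 246.3 FPKM in the deletion strain and 246.9 FPKM in the control, and a Pam17 domain gene (1142370), with 203 FPKM in the deletion strain and 159.9 FPKM in the control. Named after their values were seen, the receptor-associated Tom7 gene (1143379) had 68.1 FPKM in the deletion strain and 109.8 FPKM in the control, and the Tim44 gene (52796) had 32.4 FPKM in the deletion strain and 49.0 FPKM in the control.

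Bacterial-type translation factors found in the same way lay close to the control. Of 6 genes with no KEGG product, 2 lay below and 4 above the control, none was called, and the median was 0.12, whereas with FPKM rescaled without the cytosolic ribosomal protein genes 5 lay below and the median was -0.07. The most abundant were an initiation factor 3 domain gene (1140371), with 49.6 FPKM in the deletion strain and 50.4 FPKM in the control, and a ribosome recycling factor gene (1029101), with 43.4 FPKM in the deletion strain and 36.7 FPKM in the control. The gene with a phage-type RNA polymerase domain (1104458), the kind that transcribes mitochondrial DNA in yeast, had 18.03 FPKM in the deletion strain and 17.04 FPKM in the control, a log2 ratio of 0.08 that became -0.11 with the same rescaling. Differences between these groups were not tested.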
